A study of Mus musculus with 24 samples.

Results

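The genes described here take part in the choice of fuel in muscle: the pyruvate dehydrogenase kinases Pdk1, Pdk2, Pdk3 and Pdk4, the pyruvate dehydrogenase phosphatase Pdp1, the uncoupling proteins Ucp2 and Ucp3, the lipoprotein lipase inhibitor Angptl4 and the phosphatidate phosphatase Lpin1. They were chosen by name, as the probes of the signal table whose symbol in the platform annotation is one of these 9 genes. That gave 15 probes of 8 genes, out of 45281 probes and 19057 named genes on the array. Ucp2 was listed for no probe in the annotation used and is not analysed here. The probe of Pdk3 was detected on 2 of 24 arrays and was not tested, which left 7 genes with 10 detected probes.

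The study measured RNA of gastrocnemius muscle, the large calf muscle, from male B6D2F1 mice, an F1 hybrid strain, on Illumina bead arrays. Restricted mice were 24 months old and on caloric restriction (old caloric restricted, 5 mice on 7 arrays), old controls were 24 months old and fed freely (old ad libitum, 6 mice on 7 arrays), and young controls were 8 months old and fed freely (young ad libitum, 6 mice on 10 arrays). All were colony mice kept for the National Institute on Aging with no transgene or drug in the labels, and nothing used here gives the length of the restriction, the time of day or the hours since the last meal. There is no young restricted group, so the 3 comparisons made were restriction in old age, age under free feeding, and old restricted against young freely fed mice. The labels do not say in so many words that the numbered names are separate animals, so p-values cover the scatter of these samples, which may be technical in part.

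As background, the pyruvate dehydrogenase complex turns pyruvate from glucose into acetyl-CoA for the mitochondrion. Pyruvate dehydrogenase kinases phosphorylate the complex and shut it, and Pdp1 removes the phosphate and opens it. In fasted muscle fatty acids become the main fuel, and Pdk4, Ucp3 and Angptl4 are known targets of the fatty acid sensing PPAR receptors and are known to be induced by fasting in rodent muscle. Pdk4 and Angptl4 are also known targets of glucocorticoids, and Pdk4 of Foxo factors. Ucp3 is an inner membrane carrier protein of muscle mitochondria, Angptl4 is secreted and inactivates lipoprotein lipase, and Lpin1 both makes diacylglycerol for triglyceride synthesis and acts in the nucleus as a partner of PGC-1alpha and PPARalpha.

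Values are log2 intensities after normalization, and each value of a mouse is the mean of its arrays. A probe's level cannot be set against that of another probe, so every comparison is between mice for 1 probe. Of the 8 skeletal muscle markers all were detected, with summed intensities between 264100 and 286100 in restricted mice, between 263800 and 288000 in old ad libitum mice and between 276700 and 291200 in young mice. Between 13625 and 15176 probes were detected on an array. The number of mice limits the precision, and in whole muscle fewer cells of a type and less RNA per cell cannot be told apart.

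Lpin1 was higher in old restricted than in old ad libitum mice, and it was the only 1 of the 7 tested genes past the threshold in any of the 3 comparisons. It was 10.78, 10.62, 10.94, 11.05 and 10.73 in restricted mice 1 to 5, against 10.42 at the lowest, 10.52 at the median and 10.63 at the highest in the 6 old ad libitum mice. Each of the 5 restricted mice lay above the median of the old ad libitum mice, but the groups overlapped, because restricted mouse 2 lay just below the highest old ad libitum mouse. The difference was 0.30 ± 0.08 (log2, SE), a 1.23-fold level, with an adjusted p of 0.0449 in limma with Benjamini-Hochberg adjustment over 8943 genes. By chip the Lpin1 difference ran from -0.02 to 0.41, above 0 on 3 chips and below 0 on 1. Across all genes tested 3.18% passed in this comparison, in either direction, and a count of 1 of 7 is too small to be told apart from that share. The call lay close to the threshold, and 13 of the 17 fits that left out 1 mouse gave an adjusted p above it, with the difference between 0.25 and 0.35. Of 18 other settings 11 also ended the call, among them all 24 arrays with the mouse as a random block (adjusted p = 0.0765), the chip as a further block (0.0639), the replicate block (0.103) and a fit on these 2 groups only (0.131).

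At the probe used, every freely fed old mouse also had less Lpin1 than every young mouse, although the test fell short of the threshold. The 6 old ad libitum mice, with 10.63 at the highest, all lay below the 6 young mice, which had 10.70 at the lowest, 10.80 at the median and 11.00 at the highest. The difference of old ad libitum minus young was -0.29 ± 0.08 (log2, SE), with an adjusted p of 0.052. Groups without overlap in this comparison were found for 1 of the 7 genes and for 2.59% of all genes. Lpin1 of old restricted minus young mice differed by 0.01 (log2, 95% interval -0.16 to 0.18, adjusted p = 0.954). The summed intensity of the 11 fibroblast markers was between 16520 and 26920 in old ad libitum mice and between 25720 and 27080 in young mice. All 11 had lower means in old ad libitum mice, with a median log2 difference of -0.49. By limma 0 of them passed, against 2.06% of all genes, while 7 had an unadjusted p under 0.05, against 19.4% of all genes. Of 12 lymphocyte markers 2 were detected, Cd52 and Ccl5, with sums between 112.4 and 253.1 in restricted mice, between 221.1 and 454.2 in old ad libitum mice and between 163 and 274.1 in young mice. Both fell under restriction against old ad libitum feeding (log2 differences of -1.21 and -1.20, adjusted p = 0.0146 and 0.017), and with age they had differences of 0.73 and 0.67 (adjusted p = 0.0836 and 0.118). The part of these cells in the Lpin1 values was not tested. These comparisons share groups: the old ad libitum mice stand in the first and the second, and their low values enter both.

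A second detected Lpin1 probe, annotated to another transcript of the gene, gave a difference of 0.36 ± 0.12 (log2, SE) for restricted minus old ad libitum mice (adjusted p = 0.0953 over all probes) and of -0.39 ± 0.11 for old ad libitum minus young mice (adjusted p = 0.0599 over all probes). At this second probe the old ad libitum and young mice overlapped, with 10.25 at the highest in old ad libitum mice and 10.18 at the lowest in young mice. Over the 17 mice the 2 probes correlated at a Pearson r of 0.829 and a Spearman rho of 0.83. The other 2 probes of Lpin1 were detected on no array. Lpin1 varied little between mice of a group, with an SD of 0.12 (log2) that ranks at the 15.4th percentile of all genes, but the SD between arrays of 1 mouse was 0.11. Young mouse 6, hybridised on 4 arrays, gave Lpin1 values from 10.52 to 10.83, a range as wide as the difference between the groups.

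**Figure D1:**
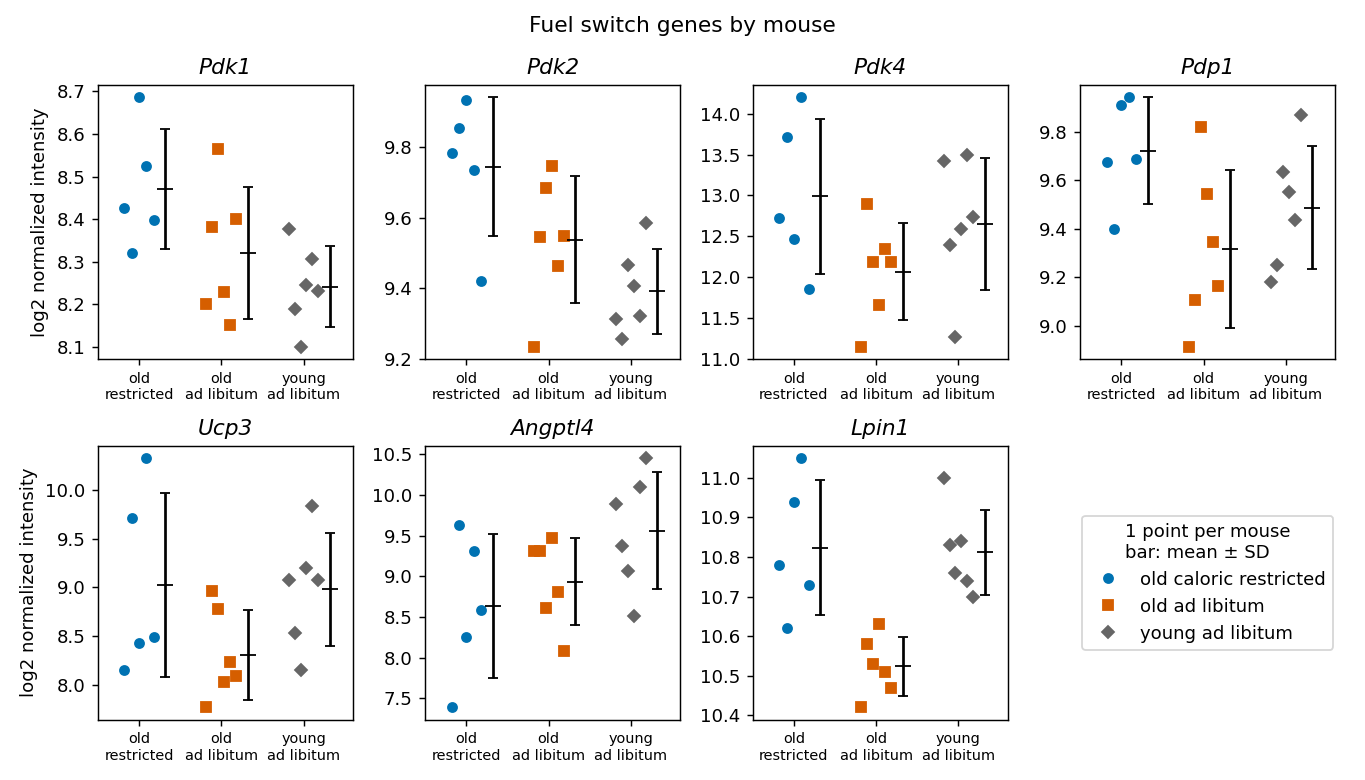
Log2 normalized intensity (vertical axes, a scale of its own in each panel) of the 7 tested genes in each mouse, in old caloric restricted, old ad libitum and young ad libitum mice; the bar beside each group is its mean ± SD. Lpin1 of all 6 old ad libitum mice lies below all 6 young mice, while Pdk4, Ucp3 and Angptl4 spread over more than 1 log2 unit in each group.

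Lpin1 and the macrophage markers tended to vary in opposite directions from mouse to mouse. Of 17 macrophage and myeloid markers 15 were detected, and their summed intensity was 3860 at the lowest and 5860 at the highest in restricted mice, 4009 and 8431 in old ad libitum mice, and 5340 and 6743 in young mice. Itgam, one of the defining markers, was below the detection filter, and Cd68 had no probe in the annotation. Under restriction Tyrobp, an adaptor protein of myeloid cells, and Mpeg1, a macrophage perforin-like protein, fell, 2 of the 15 detected markers. Their log2 differences from old ad libitum mice were -0.72 and -1.22 (limma adjusted p = 0.0421 and 0.00348). Across all genes 3.18% passed in this comparison, in either direction. Of the 15 markers 12 had lower and 3 higher means in restricted mice, with a median log2 difference of -0.36. Within groups over the 17 mice, Lpin1 and the macrophage score, the mean of the marker values, had a Pearson r of -0.697 (permutation p = 0.00138, adjusted p = 0.0193 over 28 relations of members with marker scores) and a Spearman rho of -0.669 (permutation p = 0.00925, adjusted p = 0.114). Without the 2 mice farthest from the median in Lpin1 the Pearson r was -0.682 (permutation adjusted p = 0.0241), and on the 4 chips it ran from -0.816 to -0.543. The Spearman rho did not pass the adjustment. The relations with marker scores were chosen after the data were seen, and the adjusted p-values do not cover that choice. Values by chip are not separate from each other, since young mouse 6 is on all 4 chips and 4 other mice are on 2 each. With the score as a covariate the Lpin1 difference of restricted minus old ad libitum mice was 0.19 with an adjusted p of 0.317. The part of these cells in the difference was not tested.

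**Figure D2:**
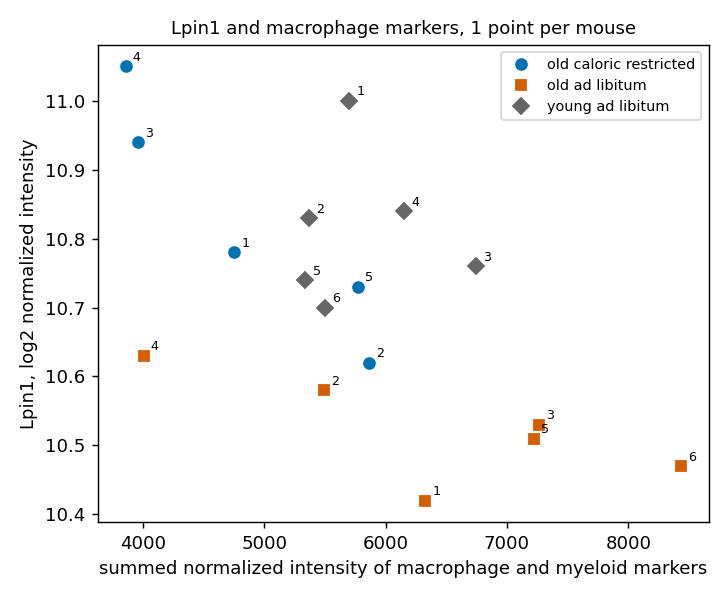
Lpin1 (log2 normalized intensity, vertical axis) against the summed normalized intensity of 15 macrophage and myeloid markers (horizontal axis), with 1 point per mouse and the mouse number beside it. Restricted mice 3 and 4 have the lowest marker sums of their group and the highest Lpin1, and every old ad libitum mouse lies below every young mouse in Lpin1.

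Slow fibre markers differed between the groups as well. Their summed intensity was between 9868 and 72230 in restricted mice, between 7391 and 38780 in old ad libitum mice and between 8260 and 30360 in young mice. The 10 detected of 11 markers all had higher means in restricted than in old ad libitum mice, with a median log2 difference of 1.07, although none passed the threshold and their smallest adjusted p was 0.0791. Against young mice all 10 also had higher means in restricted mice, with a median log2 difference of 1.41. There 1 of the 10 passed by limma (adjusted p = 0.0492), against 4.7% of all genes. With the slow fibre score as a covariate, the difference of restricted minus old ad libitum mice was 0.29 for Lpin1, with an adjusted p of 0.0942. The share of slow fibres in the muscle pieces sampled was not tested as a source of the differences.

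Of the kinases, Pdk4, the one known from fasted muscle, did not pass the threshold in any comparison, and its values scattered widely. It was 12.72, 13.71, 12.47, 14.20 and 11.86 in restricted mice 1 to 5, against 11.15 at the lowest, 12.18 at the median and 12.89 at the highest in old ad libitum mice. In young mice it was 11.27 at the lowest, 12.66 at the median and 13.49 at the highest. Restricted mice 2 and 4 and young mice 1 and 5 were the high ones, restricted mice 1, 3 and 5 lay within the range of the old ad libitum mice, and all groups overlapped. Restricted minus old ad libitum mice differed by 0.92 ± 0.42 (log2, SE, 95% interval 0.03 to 1.82, adjusted p = 0.236), old ad libitum minus young by -0.58 ± 0.41 (95% interval -1.43 to 0.27, adjusted p = 0.451), and restricted minus young by 0.34 ± 0.42 (95% interval -0.55 to 1.23, adjusted p = 0.68), a direction that turned to -0.03 with the slow fibre score as a covariate. Without restricted mice 2 and 4, chosen for their values, the first difference was 0.28 and the last -0.30. On the 4 chips restricted minus old ad libitum was between 0.26 and 1.79, above 0 on each. The lowest, 0.26, came from the chip without restricted mice 2 and 4, and each other chip held 1 of these mice. Old ad libitum minus young was between -1.03 and -0.35 on the 4 chips, below 0 on each. Young mouse 6 is on all 4 chips, so the chip values are not separate repeats.

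Pdk2, the kinase found in most tissues, came closest to the threshold between restricted and young mice. Its log2 values were 9.78, 9.85, 9.93, 9.73 and 9.42 in restricted mice 1 to 5, against 9.26 at the lowest, 9.36 at the median and 9.59 at the highest in young mice. Each restricted mouse lay above the median of the young mice, and only restricted mouse 5 lay within their range. The difference of restricted minus young mice was 0.35 ± 0.10 (log2, SE), a 1.28-fold level, with an adjusted p of 0.0524, and it was above 0 on all 4 chips. In this comparison 4.7% of all genes passed in either direction and none of the 7 did by limma, while 3 had an unadjusted p under 0.05, Pdk1, Pdk2 and Angptl4, against 21.5% of all genes. Non-overlapping groups were seen for 0 of the 7 genes, against 5.13% of all genes. In the 17 fits that left out 1 mouse the Pdk2 difference lay between 0.31 and 0.43, and 4 of them passed the threshold. The highest came without restricted mouse 5, the lowest of its group (limma adjusted p = 0.0126). Old ad libitum mice had Pdk2 values of 9.24 at the lowest, 9.55 at the median and 9.75 at the highest, and differed from neither side past the threshold: restricted minus old ad libitum was 0.21 ± 0.10 (adjusted p = 0.264) and old ad libitum minus young was 0.15 ± 0.10 (adjusted p = 0.424).

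Pdk1, the kinase known to be induced by hypoxia, lay between 8.32 and 8.69 in restricted mice, between 8.15 and 8.56 in old ad libitum mice and between 8.10 and 8.38 in young mice. Each restricted mouse lay above the median of the young mice, and the difference of restricted minus young was 0.23 ± 0.09 (log2, SE, adjusted p = 0.125). Restricted minus old ad libitum mice differed by 0.15 ± 0.09 (adjusted p = 0.34), and old ad libitum minus young by 0.08 ± 0.08 (not past the threshold). A second Pdk1 probe was detected on no array. Pdk3 gave values between 4.90 and 5.90 in the 17 mice, with its probe detected on 2 of 24 arrays.

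Pdp1, the phosphatase that opposes the kinases, was 9.67, 9.40, 9.91, 9.94 and 9.69 in restricted mice 1 to 5, against 8.91 at the lowest, 9.26 at the median and 9.82 at the highest in old ad libitum mice. All 5 restricted mice lay above the old ad libitum median, with overlap at the top of the old ad libitum range. The difference was 0.41 ± 0.15 (log2, SE, 95% interval 0.08 to 0.73, adjusted p = 0.15). The second Pdp1 probe, annotated to the same transcript, gave 0.09 ± 0.08, and over the 17 mice the 2 probes correlated at a Pearson r of 0.00249. This second probe had a mean of 6.33 and varied little, from 6.115 at the lowest in old ad libitum mice to 6.61 at the highest in restricted mice. The 2 arrays of young mouse 2 gave 6.352 and 5.948 for it, and the 4 arrays of young mouse 6 ran from 6.186 to 6.599. The other repeats lay closer: 6.23 and 6.196 in old ad libitum mouse 3, 6.635 and 6.585 in restricted mouse 2, and 6.346 and 6.31 in restricted mouse 5. The part of array noise in the low r was not tested. Young mice had Pdp1 values from 9.18 to 9.87, and the differences of old ad libitum minus young (-0.17 ± 0.15) and restricted minus young (0.23 ± 0.15) did not pass.

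For restricted against old ad libitum mice as a whole, 6 of the 7 differences were above 0, and 3 genes had an unadjusted p under 0.05, Pdk4, Pdp1 and Lpin1, against 19.8% of all genes. Groups without overlap were seen for 0 of the 7 and for 2.36% of all genes. For old ad libitum against young mice no member passed by limma, 1 had an unadjusted p under 0.05, Lpin1, against 19.4% of all genes, and 2.06% of all genes passed in either direction.

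**Figure D3:**
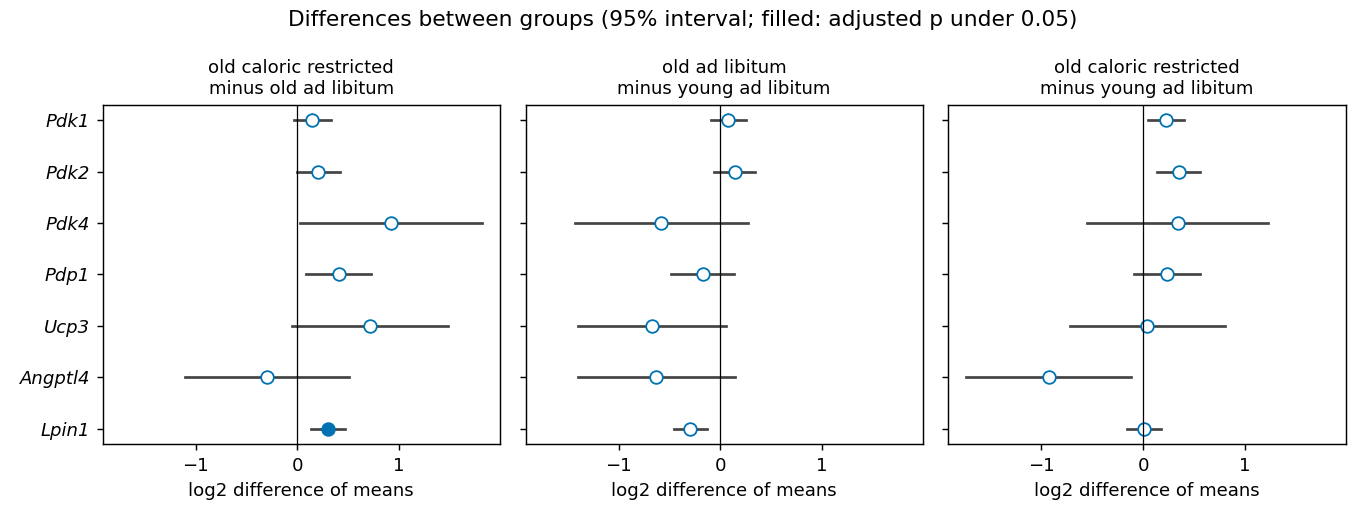
Log2 difference of group means (horizontal axes, points) with its 95% interval (lines) for the 7 tested genes in the 3 comparisons; the filled point is past the threshold of 0.05 on the adjusted p. Lpin1 is filled in old caloric restricted minus old ad libitum, and the intervals of Pdk4, Ucp3 and Angptl4 are the widest in each panel.

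Ucp3, the uncoupling protein of muscle mitochondria, was high in the same restricted mice as Pdk4. Its log2 values were 8.15, 9.72, 8.43, 10.33 and 8.49 in restricted mice 1 to 5, against 7.77 at the lowest, 8.16 at the median and 8.96 at the highest in old ad libitum mice. In young mice Ucp3 was 8.15 at the lowest, 9.08 at the median and 9.83 at the highest. Restricted mice 2 and 4 were again the high ones, and the other 3 restricted mice lay within the range of old ad libitum mice. At this probe none of the 6 old ad libitum mice reached the median of the young mice, although the groups overlapped. Restricted minus old ad libitum mice differed by 0.72 ± 0.36 (log2, SE, adjusted p = 0.287), old ad libitum minus young by -0.67 ± 0.35 (adjusted p = 0.3), and restricted minus young by 0.04 ± 0.36 (adjusted p = 0.959). Without restricted mice 2 and 4 the first of these was 0.05, and without restricted mouse 4 alone it was 0.39. A second Ucp3 probe gave 0.60 ± 0.35 for restricted minus old ad libitum mice and -0.42 ± 0.33 for old ad libitum minus young, and it correlated with the first at a Pearson r of 0.978 over the 17 mice. At this second probe the highest old ad libitum mouse, at 8.58, lay above the young median of 8.37.

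The scatter of Pdk4, Ucp3 and Angptl4 between mice was far larger than the scatter between arrays of 1 mouse. Pdk4 had an SD of 0.79 (log2) between mice of a group and of 0.06 between arrays of a mouse. For Angptl4 these were 0.71 and 0.07, and for Ucp3 0.67 and 0.14. Over all genes the medians were 0.18 and 0.09. The spread between mice ranked Pdk4 at the 99.2nd, Angptl4 at the 98.9th and Ucp3 at the 98.8th percentile of the genes tested, and Pdp1, with an SD of 0.27, at the 83.6th. Within the restricted group the highest mouse had 5.08 times the Pdk4 level of the lowest, within old ad libitum mice 3.34 times and within young mice 4.67 times. The 2 arrays of restricted mouse 5 both gave 11.86 for Pdk4, and those of restricted mouse 2 gave 13.70 and 13.73.

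**Figure D4:**
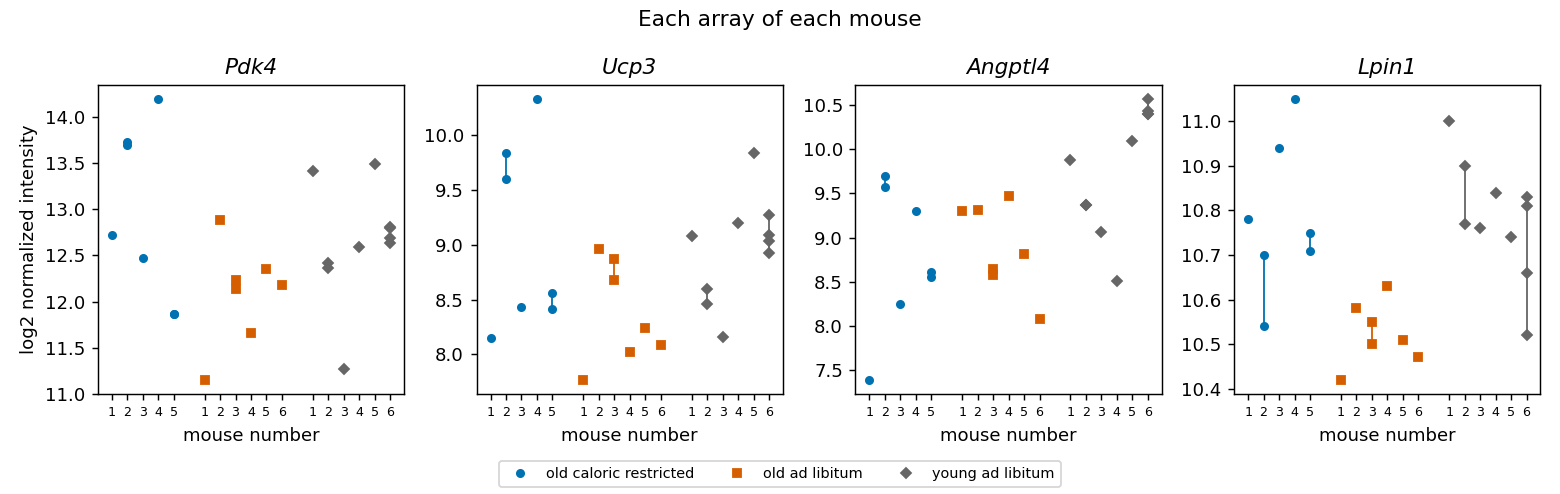
Log2 normalized intensity (vertical axes, a scale of its own in each panel) of Pdk4, Ucp3, Angptl4 and Lpin1 on each of the 24 arrays, by mouse number (horizontal axes) within old caloric restricted, old ad libitum and young ad libitum mice; a line joins the arrays of 1 mouse. Repeat arrays nearly coincide for Pdk4 and Angptl4, and spread over a large part of the Lpin1 scale in young mouse 6.

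Pdk4 and Ucp3 varied together between mice of the same group. With each gene centred on its group means, the Pearson r over the 17 mice was 0.869 (permutation p = 0.00011, adjusted p = 0.00231 over the 21 pairs of members) and the Spearman rho 0.89 (permutation p = 8e-05, adjusted p = 0.00168). Without old ad libitum mouse 1 and restricted mouse 4, the 2 mice farthest from the median in Pdk4, the Pearson r was 0.816 (permutation adjusted p = 0.0451). On the 4 chips, each with 6 arrays of 6 mice, it ran from 0.818 to 0.981. This was the only 1 of the 21 pairs that passed the adjustment. Before centring, Ucp3 was the gene most like Pdk4 among the 8942 others, with a Pearson r of 0.887 and a Spearman rho of 0.848 over the 17 mice, followed by Prpf38a at 0.781 and Wdr61 at 0.778. The genes next most like Ucp3 were Snhg12 at 0.851 and Rpf1 at 0.815.

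**Figure D5:**
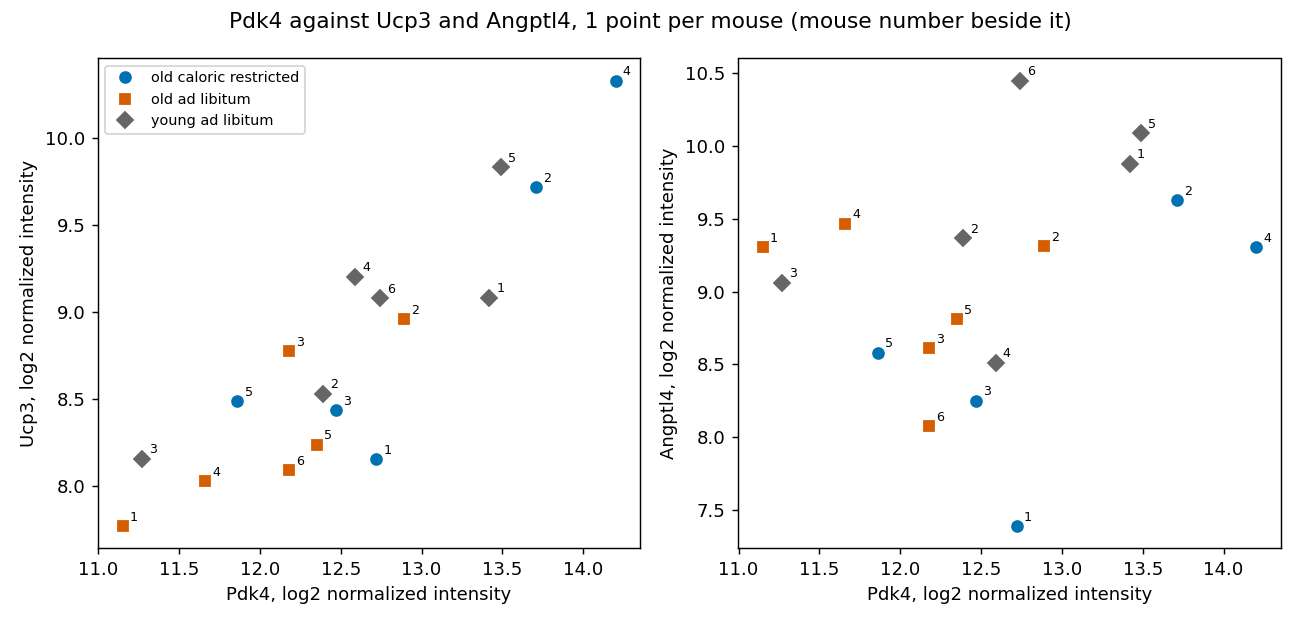
Pdk4 (log2 normalized intensity, horizontal axes) against Ucp3 (left) and Angptl4 (right), both as log2 normalized intensity, with 1 point per mouse and the mouse number beside it. The mice highest in Pdk4 are also high in Ucp3, up to restricted mouse 4 at 14.20 and 10.33, and Angptl4 scatters more.

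Because Pdk4 and Ucp3 varied together and Lpin1 differed between the groups, their RefSeq promoter windows (mouse build GRCm38.p6, 250 bases before to 50 bases after the start of the gene, in the direction of the gene) are given. Windows were found for 7 of the 9 genes. Both strands were searched for the nuclear receptor half-site AGGTCA, which PPAR, ERR and other receptors share, for 2 of them in a row with 1 base between (AGGTCANAGGTCA), the ideal form of a PPAR element, for the Foxo core TGTTTAC, for the glucocorticoid receptor half-site TGTTCT and for the E-box CACGTG. Capitals mark the matches, and any match of the longer repeat is also a match of the half-site. The window of Pdk4 lies on the minus strand at chr6:5496229-5496528, that of Ucp3 on the plus strand at chr7:100472741-100473040 and that of Lpin1 on the minus strand at chr12:16610917-16611216.
Pdk4: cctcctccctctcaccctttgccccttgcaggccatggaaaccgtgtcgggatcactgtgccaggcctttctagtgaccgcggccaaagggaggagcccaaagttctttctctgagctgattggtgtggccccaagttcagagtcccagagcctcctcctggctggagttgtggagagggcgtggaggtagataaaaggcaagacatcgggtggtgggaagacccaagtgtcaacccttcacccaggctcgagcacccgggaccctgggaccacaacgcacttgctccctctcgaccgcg
Ucp3: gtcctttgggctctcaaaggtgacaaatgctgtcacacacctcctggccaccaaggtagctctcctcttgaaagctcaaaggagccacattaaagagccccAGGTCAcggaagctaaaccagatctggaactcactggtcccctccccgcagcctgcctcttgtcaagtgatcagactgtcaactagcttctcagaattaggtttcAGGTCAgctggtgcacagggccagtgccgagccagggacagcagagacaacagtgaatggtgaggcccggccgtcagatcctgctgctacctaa
Lpin1: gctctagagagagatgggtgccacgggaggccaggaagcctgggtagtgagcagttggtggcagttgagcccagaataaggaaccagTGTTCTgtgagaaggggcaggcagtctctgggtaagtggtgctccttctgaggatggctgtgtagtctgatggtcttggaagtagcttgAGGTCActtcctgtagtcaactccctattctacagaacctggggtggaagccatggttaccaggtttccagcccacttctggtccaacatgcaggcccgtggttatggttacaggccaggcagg
The Ucp3 window held 2 half-sites, beginning at bases -149 and -44 from the start, and the Lpin1 window held 1 at base -74 and a glucocorticoid receptor half-site at base -163. In the Pdk4 window none of the 5 motifs was found, which says only that these letters are not in these 300 bases. Of 32851 promoter windows of the same length, 16.3% held the nuclear receptor half-site, 0.0396% the spaced repeat, 3.65% the Foxo core, 19.0% the glucocorticoid receptor half-site and 7.15% the E-box. The matches are descriptions of sequence, and nothing about binding was measured.

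Of the 7 tested genes Angptl4 was the only 1 with a lower mean in restricted than in old ad libitum mice, though not past the threshold. Its log2 values were 7.39, 9.63, 8.25, 9.31 and 8.58 in restricted mice 1 to 5, against 8.08 at the lowest, 9.06 at the median and 9.47 at the highest in old ad libitum mice. In young mice Angptl4 was 8.51 at the lowest, 9.63 at the median and 10.45 at the highest. Restricted mouse 1 was the lowest of all 17, and restricted mouse 2 was above every old ad libitum mouse, so the groups overlapped. Restricted minus old ad libitum mice differed by -0.30 ± 0.39 (log2, SE, adjusted p = 0.716), and by 0.01 without restricted mouse 1. None of the 6 old ad libitum mice reached the young median, with a difference of -0.63 ± 0.37 (adjusted p = 0.359) that lay between -1.35 and -0.83 on the 4 chips. Young mouse 6, the highest in Angptl4, is on all 4 chips, so it counts in each chip value and once in the fit. Restricted minus young mice differed by -0.93 ± 0.39 (95% interval -1.74 to -0.12, adjusted p = 0.17), with 4 of the 5 restricted mice below the young median. A second Angptl4 probe was detected on no array.

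Within groups Angptl4 had a Pearson r of 0.549 with Ucp3 (permutation p = 0.0584, adjusted p = 0.307) and a Spearman rho of 0.564 (permutation p = 0.0518, adjusted p = 0.343). With Pdk4 the Pearson r was 0.417 (permutation p = 0.152, adjusted p = 0.636) and the Spearman rho 0.439 (permutation p = 0.122, adjusted p = 0.511). Without the 2 mice farthest from the median the Pearson r was 0.45 with Ucp3 and 0.438 with Pdk4, and on the 4 chips it ran from 0.439 to 0.635 and from 0.238 to 0.725.
Angptl4 is made by fat cells as well as muscle, and its values varied with the fat cell markers: within groups the Pearson r with the adipocyte score was 0.737 (permutation p = 0.00073, adjusted p = 0.0193) and the Spearman rho 0.635 (permutation p = 0.00817, adjusted p = 0.114). Without old ad libitum mouse 6 and restricted mouse 1, the 2 mice farthest from the median in Angptl4, the Pearson r was 0.595 (permutation adjusted p = 0.206), so the call rests on those mice, while on the 4 chips it ran from 0.622 to 0.91. Of the 11 adipocyte markers 8 were detected, Retn and Fabp4 were below the detection filter and Cfd had no probe in the annotation. Their summed intensity was between 14710 and 24090 in restricted mice, between 12970 and 28140 in old ad libitum mice and between 15470 and 26530 in young mice. This relation too was chosen after the data were seen, which its adjusted p-values do not cover, and its Spearman rho did not pass. The part of fat cells in the Angptl4 values was not tested. The genes most like Angptl4 over the 17 mice were Ffar2 at a Pearson r of 0.77, Sod3 at 0.737 and Cdsn at 0.715.

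The remaining members each followed other genes. Lpin1 was most like Ube2q2 (Pearson r 0.87 over the 17 mice), Ss18 (0.863) and Dcaf10 (0.854). Pdk2 was most like Pym1 (0.909), Parp4 (0.901) and Cldn12 (0.897), and Pdk1 was most like Socs6 (0.816), Gsto1 (0.806) and Sh3glb1 (0.787). Pdp1 was most like Plaat1 (0.881), Qrich1 (0.862) and Golga5 (0.858). These correlations hold the group differences as well as the spread within groups.

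The genes around these members were read in 6 lists. Beside the counts of unadjusted p under 0.05 that follow, 19.8% of all genes met that limit in restricted against old ad libitum mice, 19.4% in old ad libitum against young mice and 21.5% in restricted against young mice. The shares of all genes past the threshold, in either direction, were 3.18%, 2.06% and 4.7% in the same order, and the counts past it in these short lists are small. Of 10 measured genes of the pyruvate dehydrogenase complex and pyruvate entry, 1 rose under restriction against old ad libitum feeding, Slc16a3, the lactate exporter of glycolytic fibres, by 1.39-fold (adjusted p = 0.0375). Me1, the cytosolic malic enzyme, had a 1.32-fold level (adjusted p = 0.0814). With age none of the 10 passed by limma and 1 had an unadjusted p under 0.05, Me1, with a log2 difference of -0.27 (adjusted p = 0.221), while Slc16a3 had -0.16 (adjusted p = 0.462). In restricted against young mice none of them passed and 3 had an unadjusted p under 0.05, among them Pcx, pyruvate carboxylase, at 1.38-fold (adjusted p = 0.0562), and Slc16a3 at 1.24-fold (adjusted p = 0.132). The median log2 difference of the list was 0.06 for restricted minus old ad libitum, 0.02 for old ad libitum minus young and 0.10 for restricted minus young mice, beside -0.02, 0.02 and -0.01 over all genes.

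Of 9 measured mitochondrial carriers and uncoupling genes none passed by limma in any comparison. Unadjusted p-values under 0.05 were found for 1 of them, Slc25a30, under restriction against old ad libitum feeding (1.48-fold, adjusted p = 0.247), and for 0 in the other 2 comparisons. Slc25a4, the ADP/ATP carrier of muscle, had a 1.22-fold level in restricted against old ad libitum mice (adjusted p = 0.371) and a 1.20-fold level against young mice (adjusted p = 0.39). The dicarboxylate carrier Slc25a10 had a 1.24-fold level in restricted against young mice (adjusted p = 0.487). In old ad libitum minus young mice Slc25a30 had a log2 difference of -0.31 (adjusted p = 0.537) and Slc25a11, the oxoglutarate carrier, of 0.09 (adjusted p = 0.594). The list medians were 0.00, -0.03 and -0.01 in the same order of comparisons.

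Among 10 measured genes of lipoprotein lipase and its partners, Slc27a1, a fatty acid transporter, rose 1.48-fold in restricted against young mice (adjusted p = 0.0398) and had a 1.35-fold level in restricted against old ad libitum mice (adjusted p = 0.111). Lpin2 and Lpin3 stood in this list too, but neither was tested. Gpihbp1, which carries lipoprotein lipase to the capillary wall, had a 1.42-fold level in restricted against old ad libitum mice (adjusted p = 0.174). Under restriction and with age none of the 10 passed by limma and 2 had an unadjusted p under 0.05 in each comparison. Vldlr, a lipoprotein receptor, had a log2 difference of -0.25 in old ad libitum minus young mice (adjusted p = 0.103), and Angptl1, a secreted relative of Angptl4, had -0.56 (adjusted p = 0.0776). Against young mice the restricted mice had a log2 difference of -0.27 in Angptl1 (adjusted p = 0.382). The list medians were 0.03, -0.01 and -0.00 in the same order of comparisons.

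Of 25 measured PPAR and fasting targets 1 rose under restriction against old ad libitum feeding, Acot1, an acyl-CoA thioesterase, by 3.25-fold (log2 difference 1.70 ± 0.44 SE, adjusted p = 0.0405). Cpt2, the inner carnitine palmitoyltransferase, had a log2 difference of -0.25 (adjusted p = 0.181). By limma 5 of the 25 had an unadjusted p under 0.05 in this comparison, against 19.8% of all genes. In old ad libitum against young mice none of the 25 passed by limma and 4 had an unadjusted p under 0.05, among them Txnip (log2 difference -0.47, adjusted p = 0.117) and the peroxisomal catalase Cat (-0.39, adjusted p = 0.191). In restricted against young mice none passed and 3 had an unadjusted p under 0.05, Acot1 at a 2.50-fold level (adjusted p = 0.0878), Txnip with a log2 difference of -0.58 (adjusted p = 0.0552) and Cpt2 with -0.34 (adjusted p = 0.0663). The list medians were -0.03, -0.05 and -0.07, with 10, 9 and 11 of the 25 above 0.

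Of 19 measured nuclear receptors, coactivators and Foxo factors, Nrip1, a corepressor of nuclear receptors, rose 1.62-fold in restricted against old ad libitum mice (adjusted p = 0.0221), and Nr1d1, the clock repressor Rev-erb alpha, fell, with a log2 difference of -1.001 ± 0.16 (SE, adjusted p = 0.00507). Against young mice the restricted mice also had more Nrip1 (1.51-fold, adjusted p = 0.0312) and less Nr1d1 (log2 difference -1.26 ± 0.16, adjusted p = 0.000782). With age Nr3c1, the glucocorticoid receptor, fell, with a log2 difference of -0.69 ± 0.17 (adjusted p = 0.0416), and so did Foxo4 (-0.48 ± 0.11, adjusted p = 0.0272). The list medians were -0.01, -0.05 and -0.01.

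Of 24 measured glucocorticoid and Foxo targets, the cell cycle inhibitor Cdkn1a and the metallothionein Mt2 fell under restriction against old ad libitum feeding, with log2 differences of -1.30 ± 0.30 and -0.93 ± 0.25 (SE, adjusted p = 0.0288 and 0.0482). The growth arrest gene Gadd45a rose 2.21-fold with age (adjusted p = 0.0399), where Mt2 had a 1.84-fold level (adjusted p = 0.0573), and the transcription factor Cebpb rose 1.53-fold in restricted against young mice (adjusted p = 0.0305), where Pik3r1, a subunit of PI3 kinase, had a 1.47-fold level (adjusted p = 0.0613). The list medians were 0.13, 0.07 and 0.06 in the 3 comparisons.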

How the data were processed

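Total RNA of 17 mice was hybridised on 24 Illumina arrays. Per the file headers, the deposited table holds for each probe on each array an average signal intensity with its detection p-value, and the submitters' processing notes name GenomeStudio with no version. The authors' deposited matrix gives linear intensity values (column medians 98.603 to 98.658), used as an alternative, with normalization not stated and correlations of 0.9995 or more with each array's own signals.

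Signals were background corrected, quantile normalized and put on the log2 scale with neqc (limma 3.58.1, R 4.3.3, offset 16), by code for this report and not by the authors. The 15268 probes that passed a detection p of 0.01 on 5 or more arrays were used. A gene's probe with the highest mean was used, arrays of a mouse were averaged, and 8943 genes with 1 symbol were compared in 1 limma fit over 17 mice (lmFit, eBayes, Benjamini-Hochberg, threshold 0.05, two-sided). Relations between genes were tested by two-sided permutation within groups (100000 resamples, Python 3.11.15, numpy 2.4.6, scipy 1.17.1), and those with marker scores were chosen after seeing the data. Promoter windows came from RefSeq. Figures were drawn with matplotlib 3.10.9. The fits were tested on simulated data. The members and lists were chosen with earlier results of these data known. All members were named, and of each list the genes past the threshold, at most 4, or the 2 with the smallest p. Every group was present on each of the 4 chips of 6 arrays. Alternatives were other background corrections, scalings, filters, probe rules and fits, marker scores as covariates, a replicate block, leaving out each mouse and, added later, leaving out restricted mice 2 and 4. The mouse numbers were not treated as a pairing: of 16 same-numbered pairs 5 correlated above 0.1 (range -0.251 to 0.188). Differently numbered pairs were not compared, so these values cannot settle whether the numbers pair the samples.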

Additional observations from a re-analysis of the deposited data

How the results depend on the processing

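The Lpin1 difference of restricted minus old ad libitum mice kept its direction under all 18 settings, between 0.19 and 0.33, but it lost the call under 11 of them (adjusted p from 0.0257 to 0.317 with the fits without 1 mouse), so that 0 members passed. It was 0.2829 with 75th percentile scaling, 0.3031 with no detection filter, with all probes tested singly and with the 2 groups only, 0.2936 with 24 arrays and the mouse as a random block, 0.2824 with the chip as a further block, 0.3081 with array weights, 0.2875 with the slow fibre score and 0.1948 with the macrophage score as a covariate, and 0.2949 without restricted mice 2 and 4. The replicate block gave 0.2871 (limma adjusted p = 0.103), and whether the numbers are a pairing is not known. Leaving out each mouse gave 0.246 to 0.3541, 0 to 1 members past the threshold under restriction, 0 to 1 with age and 0 to 1 against young mice.
With age 1 member, Lpin1, passed under 11 settings (no background correction, the authors' values, detection on all arrays, the chip block, 1 array per mouse, all probes, the mean of probes, the trend and robust prior, array weights, 2 groups, and without restricted mice 2 and 4). Restricted against young, 1 member, Pdk2, passed under 7 settings and 2, Pdk1 and Pdk2, with array weights.
Some differences of restricted minus young mice turned sign: Pdk4, 0.3422 in the report, to -0.0337 (slow fibre score) and -0.3014 (without restricted mice 2 and 4), Ucp3 to -0.1505 (slow fibre), -0.03997 (macrophage) and -0.6219 (without those mice), and Lpin1 to -0.03387 (chip block), -0.001608 (1 array per mouse), -0.00627 (mean of probes), -0.005231 (replicate block), -0.01148 (slow fibre) and -0.05861 (macrophage). Leaving out a mouse turned Ucp3 there (-0.2821 to 0.2617), Lpin1 there (-0.04629 to 0.06178) and Angptl4 of restricted minus old ad libitum mice (-0.5485 to 0.01173). Weak pair correlations turned to -0.00298, -0.0962, 0.00726, -0.101, -0.0462, 0.0586 and -0.0877 without the 2 mice farthest from the median. The causes were not tested. Over the settings without single mice left out, the count of all genes past the threshold ran from 19 to 414 under restriction, from 95 to 482 with age and from 77 to 1143 against young mice, and with 1 mouse left out from 66 to 502, 32 to 262 and 131 to 688.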

Other observations

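Among the 24 measured glucocorticoid and Foxo targets some varied with the fasting genes from mouse to mouse within groups. With Pdk4, 5 of the 24 had a centred Pearson r over 0.5, against 2.76% of all genes, the highest being Sesn1, a stress-inducible inhibitor of mTORC1, at 0.658. With Ucp3, 7 of the 24 did, against 3.39% of all genes, led by Klf9, a glucocorticoid-induced transcription factor, at 0.752. With Angptl4, 5 of the 24 did, against 3.38% of all genes, led by Fbxo32, the muscle ubiquitin ligase atrogin-1, at 0.763. With Lpin1, 1 of the 24 did, Bnip3 at 0.661, against 2.1% of all genes. Of 25 measured PPAR and fasting targets, 1 passed 0.5 with Pdk4, 1 with Ucp3, 2 with Angptl4 and 3 with Lpin1. The medians of r differed less than these counts for Pdk4: 0.306 in this list and 0.348 in the glucocorticoid and Foxo list, against -0.0117 over all genes. With Ucp3 they were 0.219 and 0.375, with Angptl4 0.105 and 0.318, and with Lpin1 0.237 and 0.0648. Over all genes the medians with these 3 were 0.00489, 0.00263 and -0.0283. Among 19 receptors, coactivators and Foxo factors, 4 passed 0.5 with Angptl4 (Tfeb at 0.661, Nr1d1 at 0.53, Klf15 at 0.522 and Pparg at 0.512). With Lpin1 2 did, led by Foxo4 at 0.56, against 2.1% of all genes, with Pdk4 1 did (Esrrg at 0.546) and with Ucp3 0 did. Other genes of this list varied in the opposite direction. The lowest r was -0.506 with Pdk4 (Ppard) and -0.569 with Ucp3 (Prkaa2). With Angptl4 the lowest were the glucocorticoid receptor Nr3c1 at -0.588 and Ppargc1b at -0.558. These are descriptions over 17 mice that share chips, chosen after the values were seen, and they were not tested.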
